A study of Mus musculus with 3 samples.

Results

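The collagen genes of the mouse were examined in bone marrow cells sorted for GFP driven by the nestin promoter. They were taken as every gene whose symbol is Col, a number, the letter a and a number, with at least 4 probesets that carry a single gene symbol. This gave 44 of the 18865 genes measured, covered by 2307 of the 1256831 probesets on the array. Of these genes, 40 carried a collagen symbol in the platform annotation. The other 4 (Col6a4, Col6a5, Col6a6 and Col26a1) were named there by older symbols and joined after these were updated. No probeset named a collagen gene together with a second gene.

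RNA came from freshly isolated GFP-positive marrow cells of C57BL/6 mice that carry GFP under the control of the nestin promoter. The 3 arrays form 1 group without a control, and arrays 1 to 3 bear the numbers of the sample titles. A reporter of this kind marks cells in which the promoter fragment is active, and the labels give no age or sex of the animals. They do not tie the samples to separate animals or sorts, so the variation among these 3 samples may be technical. Every p-value rests on that variation, with the variance of each gene drawn toward a value shared by all genes.

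Collagens are secreted or membrane-bound proteins built from 3 chains that wind into a triple helix, and several types combine chains from different genes. Fibrillar collagens form the cables of bone, cartilage and connective tissue. Type IV collagen forms the sheet of basement membranes, types VI, VIII and X form networks or beaded filaments, and FACIT collagens decorate the surface of fibrils. Transmembrane collagens stay anchored in the cell membrane. In marrow, stromal and bone-forming cells are known as main producers of matrix collagen.

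Type IV collagen is also known for its gene arrangement, in which Col4a1 and Col4a2 lie head to head. Promoter windows from 250 bases before to 50 bases after the gene start are shown for this pair and for Col1a2. Col1a2 is 1 of the 2 genes of type I collagen, and the other, Col1a1, had no window. Each gene shown lay above background and is set beside its partner chain across the arrays, as are other collagen genes not shown. Sequences are from RefSeq (GRCm38.p6), written 5′ to 3′ on the strand of the gene. Capitals mark the motifs CCAAT and GGGCGG and their reverse complements ATTGG and CCGCCC, which do not overlap in these windows.
Col4a1, chr8:11312777-11313076, minus strand: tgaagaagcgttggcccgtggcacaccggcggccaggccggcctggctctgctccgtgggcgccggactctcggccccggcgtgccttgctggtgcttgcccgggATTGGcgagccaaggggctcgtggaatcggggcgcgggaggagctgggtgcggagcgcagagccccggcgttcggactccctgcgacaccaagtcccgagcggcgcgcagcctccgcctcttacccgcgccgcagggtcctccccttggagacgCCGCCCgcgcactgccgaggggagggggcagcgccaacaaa
Col4a2, chr8:11312555-11312854, plus strand: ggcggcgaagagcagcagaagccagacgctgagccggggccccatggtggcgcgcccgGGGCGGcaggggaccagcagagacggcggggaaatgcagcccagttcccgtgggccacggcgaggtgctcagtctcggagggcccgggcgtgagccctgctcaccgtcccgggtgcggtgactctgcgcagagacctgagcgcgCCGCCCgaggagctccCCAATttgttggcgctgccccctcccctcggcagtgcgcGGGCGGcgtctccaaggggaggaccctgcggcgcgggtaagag
Col1a2, chr6:4505368-4505667, plus strand: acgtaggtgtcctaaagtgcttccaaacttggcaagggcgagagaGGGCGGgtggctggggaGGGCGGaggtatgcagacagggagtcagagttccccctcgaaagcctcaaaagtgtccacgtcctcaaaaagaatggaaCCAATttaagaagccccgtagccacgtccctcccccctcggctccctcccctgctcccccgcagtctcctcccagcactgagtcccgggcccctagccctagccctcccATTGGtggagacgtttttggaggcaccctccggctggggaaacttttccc
The windows of Col4a1 and Col4a2 overlapped by 78 bases, and the annotated starts of the genes lay 21 bases apart, each inside the other gene. Col4a1 had 1 CCAAT and 1 GGGCGG match, Col4a2 had 1 and 3, and Col1a2 had 2 and 2. The GGGCGG match of Col4a1 and the last one of Col4a2 are the same site, which lies in the bases shared by both windows. Of the 44 collagen genes 35 had a window in the table, 38 windows in all. CCAAT was found in 34.2% of these windows and in 37.4% of all 32851 windows of the table, and GGGCGG in 60.5% and 35.7%. A match describes the letters and does not show a bound site.

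For each gene the median over its probesets was taken per array, on the log2 scale of the deposited values. Background was measured on the same array with 355 olfactory, vomeronasal and bitter taste receptor genes, and the threshold was their 95th percentile, at 5.40, 5.66 and 5.64 on arrays 1, 2 and 3. The margin is the mean difference between a gene's value and the threshold of the same array. Its SE, where given, is limma's moderated one, in which each gene's variance is drawn toward a value shared by all genes. It is smaller than the plain SE for genes that vary much and larger for genes that vary little. A gene was called above background at a one-sided adjusted p below 0.05 in limma, and called strongly above it when it passed the same test against the threshold plus 1 log2 unit. Probes differ in affinity, so the values of different genes are not ranked.

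Of the 44 collagen genes, 30 (68.2%) lay above background and 16 (36.4%) lay strongly above it. Among all genes tested, 50.6% were above background and 24.1% strongly above it. The median margin was 1.04 for the collagen genes and 0.50 for all genes on the log2 scale. Fibrillar genes were called in 10 of 11 cases, basement membrane genes in 6 of 9, network genes in 5 of 9, FACIT genes in 5 of 9 and transmembrane genes in 3 of 4. The strong calls fell on 7 fibrillar, 2 basement membrane, 4 network and 3 FACIT genes, and on 0 of the 4 transmembrane genes in limma's stricter test, also 0 at an unadjusted p below 0.05. Col26a1 and Col28a1, which belong to none of these classes, gave 1 call and 0 strong calls in limma, also 0 at an unadjusted p below 0.05. Collagen genes are long, with a median of 55 probesets against 13 for all genes. Among genes with at least 10 probesets, 25 of 43 collagen genes and 52.3% of all genes were called. Strong calls there were 13 of the 43 and 3165 of all 12550 genes. The threshold of that setting also changed, as it came from 30 background genes in place of 355. In that fit limma gave every gene the same variance.

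**Figure D1:**
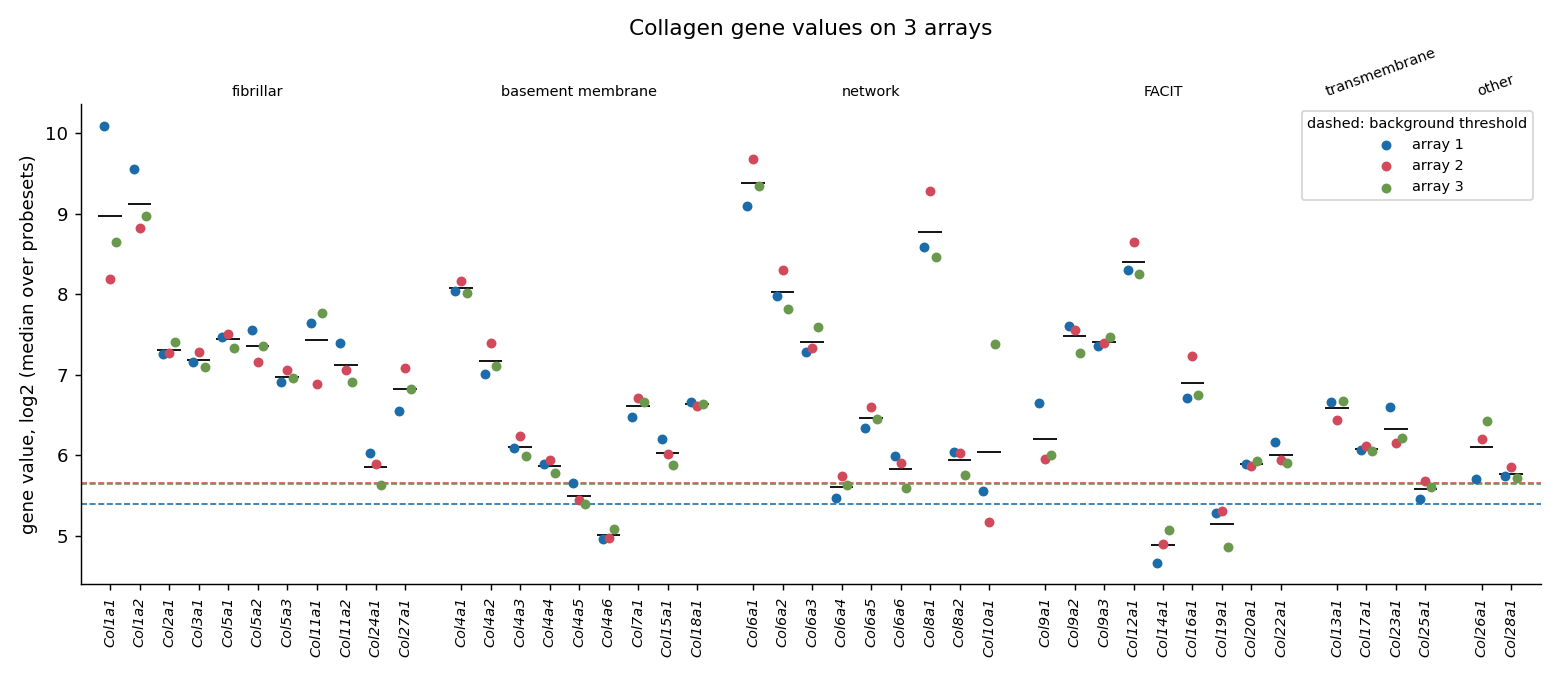
Value of each of the 44 collagen genes (log2, median over probesets) on arrays 1, 2 and 3, grouped by class, with a black bar at the mean of the 3 arrays and a dashed line at each array's background threshold. The genes of type I collagen lie between 8.19 and 10.10, while Col14a1, Col19a1 and Col4a6 lie below the threshold on every array.

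Among fibrillar genes, those of type I collagen, the main protein of bone matrix, gave a strong signal that differed between arrays. Col1a1 had 10.10, 8.19 and 8.65 on arrays 1, 2 and 3, a margin of 3.41 ± 0.37 (SE, n = 3; adjusted p = 4.26e-05, limma). Col1a2 had 9.56, 8.83 and 8.97, a margin of 3.55 ± 0.23 (adjusted p = 2.55e-06, limma). Both genes were highest on array 1 and lowest on array 2, and every value was above the threshold. Col3a1, the chain of type III collagen that accompanies type I in soft connective tissue, had 7.16, 7.29 and 7.10, a margin of 1.62 (adjusted p = 5.19e-05, limma). The values of Col3a1 spread little, with an SD of 0.10.

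Type V collagen is incorporated into type I fibrils and limits their width. Col5a1 had 7.47, 7.51 and 7.34 and Col5a2 had 7.55, 7.16 and 7.36 on arrays 1, 2 and 3. Both were strongly above background (adjusted p of the stricter test 0.00416 and 0.0106, limma). The remaining chain gene of this type, Col5a3, had 6.91, 7.06 and 6.96 and passed the first test only, with a margin of 1.41 (adjusted p = 0.000107, limma). Its values differed by at most 0.15 between arrays.

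Fibrillar genes known from cartilage were also called. Col2a1, the main collagen of cartilage, had 7.25, 7.27 and 7.41, a margin of 1.74 ± 0.18 (SE; adjusted p = 3.12e-05, limma). Type XI collagen sits in the core of cartilage fibrils. Col11a1 had 7.65, 6.88 and 7.77, with array 2 lowest, and was strongly above background. Col11a2 had 7.39, 7.06 and 6.91 and passed the first test (adjusted p = 0.000146, limma) but not the stricter one (adjusted p = 0.0582, limma). Of the 11 chondrocyte markers examined, 7 (63.6%) were above background and 2 (18.2%) strongly so, beside 50.6% and 24.1% of all genes. The 2 were Cnmd (8.25 ± 0.47, SD) and Snorc (7.68 ± 0.05), and Chad (7.19 ± 0.57) passed the first test only. Acan, the gene of aggrecan, had 6.22, 5.91 and 6.45 and passed the first test only (adjusted p = 0.0151, limma). Matn1 had 4.82 ± 0.26 and was not called. The part of cartilage cells in the values of these collagen genes was not tested. In bulk samples, fewer cells of a type and less RNA per cell cannot be told apart.

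Of the remaining fibrillar genes, Col27a1 had 6.56, 7.09 and 6.82 and was called with a margin of 1.26 (adjusted p = 0.000236, limma). Col24a1, a fibrillar chain described in developing bone, had 6.02, 5.89 and 5.64. It was not called (adjusted p = 0.172, limma), and its value on array 3 was just below the threshold.

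Basement membrane genes divided by chain. Col4a1 and Col4a2 encode the chains of the widespread form of type IV collagen. Col4a1 had 8.05, 8.17 and 8.02, a margin of 2.51 ± 0.18 (SE; adjusted p = 4.14e-06, limma), and Col4a2 had 7.01, 7.39 and 7.11, a margin of 1.60 ± 0.18 (adjusted p = 5.29e-05, limma). They were the only basement membrane genes strongly above background, and both had their highest value on array 2. The chains of the tissue-restricted forms, known from kidney, eye, ear and smooth muscle, lay nearer the threshold. Col4a3 was called, with 6.09, 6.24 and 5.99 and a margin of 0.54 (adjusted p = 0.0202, limma). Without array 1 its adjusted p was 0.0607 and without array 2 it was 0.0895 (limma). Col4a4 had a margin of 0.30, Col4a5 of -0.07 and Col4a6 of -0.56, and none of these 3 was called (adjusted p of 0.127, 0.962 and 1, limma).

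The other basement membrane genes gave values of modest size. Col18a1, whose protein is the source of the fragment endostatin, had 6.67, 6.61 and 6.64, a margin of 1.07 (adjusted p = 0.000614, limma) and the smallest SD of the 44 genes, 0.03. Col7a1, which forms anchoring fibrils in skin, had 6.47, 6.71 and 6.67, a margin of 1.05 (adjusted p = 0.00056, limma). Col15a1, found in the basement membrane zone of vessels and muscle, had 6.20, 6.02 and 5.88, a margin of 0.47 (adjusted p = 0.0444, limma). Its call was lost without any 1 of the arrays, with adjusted p of 0.147, 0.0878 and 0.061 without array 1, 2 and 3 (limma).

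Network genes held both strong and absent calls. Type VI collagen, a beaded filament around cells, is assembled from the products of Col6a1 and Col6a2 with 1 further chain. Col6a1 had 9.10, 9.68 and 9.35, a margin of 3.81 ± 0.18 (SE; adjusted p = 6.43e-07, limma, the smallest of the 44 genes). Col6a2 had 7.98, 8.30 and 7.81 (margin 2.46) and Col6a3 had 7.29, 7.34 and 7.59 (margin 1.84). All 3 lay strongly above background, while the genes of the alternative chains did not. Col6a5 had 6.34, 6.60 and 6.45 and passed the first test (adjusted p = 0.00139, limma). Col6a4, with a margin of 0.05, and Col6a6, with a margin of 0.26, were not called (adjusted p of 0.641 and 0.2, limma).

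Type VIII collagen, known from vessel walls and the cornea, is made of the products of Col8a1 and Col8a2. Col8a1 had 8.59, 9.28 and 8.46, a margin of 3.21 ± 0.21 (SE; adjusted p = 2.54e-06, limma). Col8a2 had 6.04, 6.03 and 5.75, all above the threshold of their array, and was not called (adjusted p = 0.0837, limma). Col10a1, the collagen of hypertrophic cartilage, had 5.56, 5.17 and 7.38 and was not called (adjusted p = 0.215, limma). It was the member with the widest range, 2.21, and rested on 5 probesets, the smallest number among the collagen genes. Its margin was 0.95 without array 2 (adjusted p = 0.00243, limma) and -0.16 without array 3 (adjusted p = 1, limma), and without array 1 it was not called (adjusted p = 0.292, limma). The fit without array 2 gave every gene the same variance, so that p-value does not measure the spread of Col10a1. Its margins were 0.16 on array 1 and 1.74 on array 3.

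Among FACIT genes Col12a1 was strongly above background, with 8.30, 8.64 and 8.25 and a margin of 2.83 ± 0.19 (SE; adjusted p = 2.52e-06, limma). Its protein binds type I fibrils in dense connective tissue and bone. Of the type IX genes, whose product coats cartilage fibrils, Col9a2 (7.61, 7.56 and 7.27) and Col9a3 (7.36, 7.39 and 7.47) were also strongly above background. Col9a1 had 6.66, 5.96 and 6.01 and passed the first test only (adjusted p = 0.0265, limma), and without array 1 it was not called (margin 0.33, adjusted p = 0.117, limma). Col16a1 had 6.72, 7.24 and 6.75, a margin of 1.34 (adjusted p = 0.000205, limma). Col20a1 and Col22a1 lay above the threshold on all 3 arrays without passing the test (adjusted p of 0.101 and 0.0529, limma). Col14a1, a FACIT of tendon and skin, had 4.67, 4.90 and 5.08, and Col19a1 had 5.29, 5.31 and 4.86, below the threshold throughout.

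Transmembrane genes were called with small margins. Col13a1, whose protein sits at cell-matrix contacts and the neuromuscular junction, had 6.66, 6.45 and 6.68, a margin of 1.03 (adjusted p = 0.000934, limma). Col23a1 had 6.60, 6.15 and 6.22 (margin 0.76; adjusted p = 0.00773, limma). Col17a1, the hemidesmosome collagen of epidermis, had 6.06, 6.12 and 6.05 and a margin of 0.51 (adjusted p = 0.0231, limma). Its call was lost without any 1 of the arrays (adjusted p of 0.0616, 0.079 and 0.0633 without array 1, 2 and 3, limma). Of the 7 keratinocyte markers measured, 2 (28.6%) were above background, beside 50.6% of all genes. They were Krt14 (6.53 ± 0.29, SD) and Krt10 (6.30 ± 0.06). In the stricter limma test 0 passed, with 0 also at an unadjusted p below 0.05, beside 24.1% of all genes at the adjusted p. Ivl had the smallest margin of that list, at 4.29 ± 0.49 (SD). Col25a1, a neuronal collagen, had a margin of 0.02 and was not called (adjusted p = 0.735, limma). Outside the classes, Col26a1 had 5.70, 6.20 and 6.43, a margin of 0.54 (adjusted p = 0.0226, limma), and was not called without array 2 (adjusted p = 0.0758, limma) or array 3 (adjusted p = 0.144, limma). Col28a1 had 5.74, 5.85 and 5.72 and was not called (adjusted p = 0.251, limma).

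The share of probesets with signal differed between genes. A probeset was counted as above background when it exceeded, on all 3 arrays, the 95th percentile of the probesets of the chemosensory genes (7.00, 7.22 and 7.00 on arrays 1, 2 and 3). This held for 851 of 2307 collagen probesets (36.9%), for 27.5% of the probesets of all genes and for 4.22% of those of the chemosensory genes. Col6a1 had 30 of 35 probesets above (85.7%), Col1a1 41 of 55, Col6a2 25 of 34, Col1a2 47 of 66, Col12a1 51 of 74, Col8a1 8 of 12 and Col4a1 43 of 68. In each of these genes more probesets were above background than not.

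Other called genes were patchier. Col3a1 had 25 of 59 probesets above, Col5a2 27 of 63 and Col2a1 34 of 71. Col18a1 had 12 of 55, with single probesets between 3.28 and 11.33 on the log2 scale, and Col15a1 had 9 of 51. At the other end, Col4a6 had 5 of 68 and Col14a1 5 of 53. Even these uncalled genes held bright probesets, up to 9.43 in Col4a6 and 9.69 in Col14a1. Probeset positions along the transcripts were not used here.

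**Figure D2:**
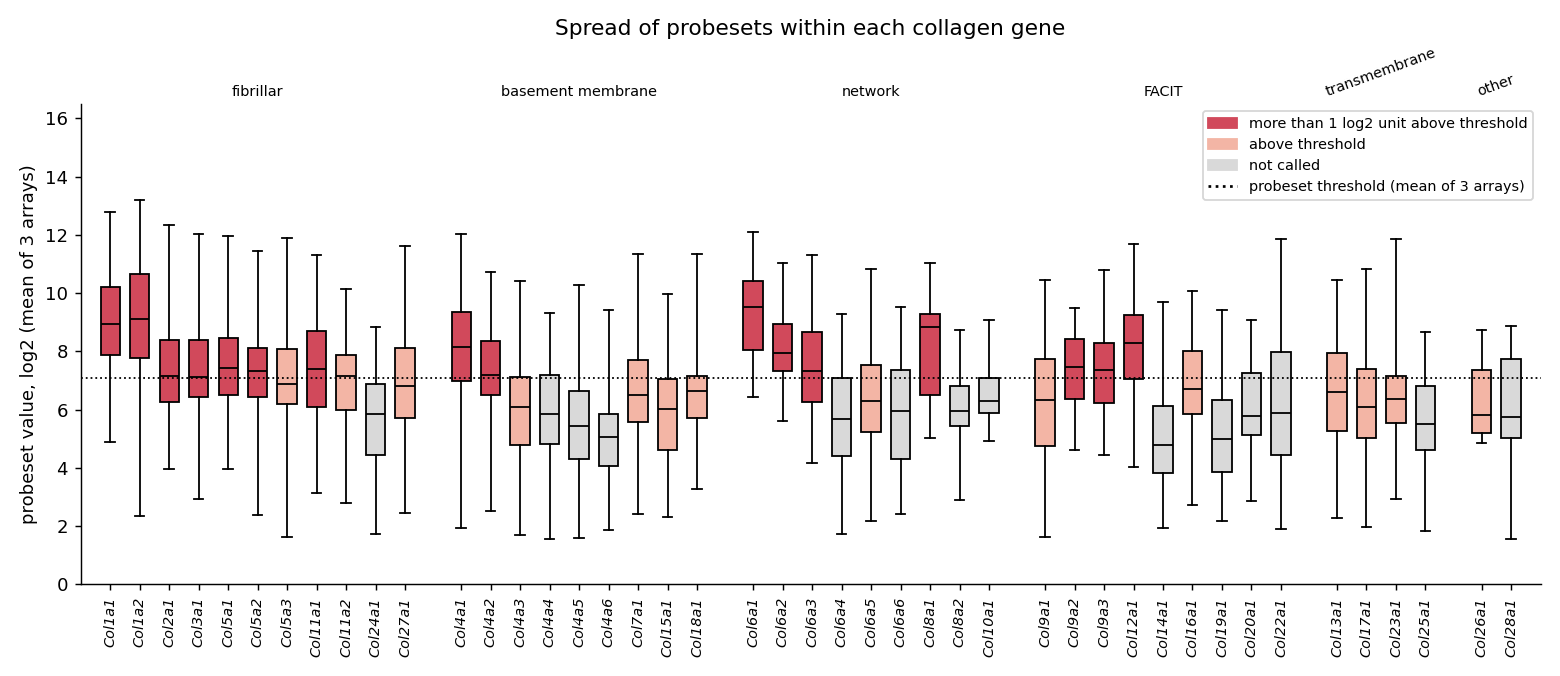
Box plots of the probeset values of each collagen gene (log2, mean of 3 arrays), with boxes from the lower to the upper quartile, a line at the median and whiskers to the lowest and highest probeset; colour marks the call of the gene, and the dotted line is the mean of the 3 probeset thresholds. The whole boxes of Col1a1, Col1a2, Col6a1 and Col6a2 lie above the line, while Col4a6 and Col14a1 lie mostly below it.

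Over the 3 arrays the collagen genes had a median SD of 0.16 on the log2 scale, beside 0.27 over all genes. Collagen genes are summarised over more probesets, and the part of this in their SD was not tested. To set arrays side by side, each gene's deviation from its own mean was taken and the median deviation of all genes on that array was removed. With 3 arrays of 1 group these differences have no test. The collagen median deviation was -0.05, 0.07 and -0.02 on arrays 1, 2 and 3. Of the 44 genes, 15 were lowest on array 1, 10 on array 2 and 19 on array 3, which is 34.1%, 22.7% and 43.2%. Over all genes the shares were 30.2%, 32.9% and 36.9%.

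The type I genes deviated in the same directions. Col1a1 deviated by 1.09, -0.80 and -0.29 on arrays 1, 2 and 3, and Col1a2 by 0.41, -0.30 and -0.11. In Col1a1, 51 of 55 probesets had their highest value on array 1, and in Col1a2 51 of 66, where 34.8% of the probesets of all genes did. The 9 osteoblast markers measured had median deviations of 0.22, -0.20 and -0.04, with 5 of 9 highest on array 1 and 6 of 9 lowest on array 2. Among them Ibsp, the bone sialoprotein gene, had 12.32, 12.32 and 12.34, Spp1 had 10.66, 9.91 and 10.08, Phex had 9.69, 9.75 and 8.93, and Sost, with the smallest margin, had 6.24, 5.82 and 5.92. The part of bone-forming cells in the type I values was not tested.

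Col6a1, Col6a2 and Col8a1 were highest on array 2. Col6a1 deviated by -0.30, 0.30 and 0.01, Col6a2 by -0.08, 0.26 and -0.18 and Col8a1 by -0.21, 0.49 and -0.28. In Col6a1, 31 of 35 probesets were highest on array 2, in Col6a2 24 of 34 and in Col8a1 8 of 12, against 33.6% of all probesets. None of the 34 probesets of Col6a2 was lowest on that array. Col6a3 did not follow, with -0.14, -0.08 and 0.22, and 15 of its 51 probesets were highest on array 2. Neither did Col6a6, with 0.13, 0.07 and -0.20 and 13 of 39 probesets highest on array 2. Col8a2 was nearly equal on arrays 1 and 2, with 0.07, 0.08 and -0.15 and 4 of 21 probesets highest on array 2. Col6a4 (-0.17, 0.13 and 0.05) and Col6a5 (-0.15, 0.13 and 0.02) were highest on array 2, with 15 of 42 and 18 of 29 probesets highest there. Of the 44 collagen genes, 20 (45.5%) were highest on array 2, beside 35.25% of all genes. The FACIT genes Col12a1 (-0.13, 0.24 and -0.11) and Col16a1 (-0.21, 0.33 and -0.11) were also highest on array 2.

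The pair Col4a1 and Col4a2, whose promoter windows overlap, deviated by -0.06, 0.08 and -0.02 and by -0.19, 0.21 and -0.03. Of their probesets, 22 of 68 in Col4a1 and 25 of 55 in Col4a2 were highest on array 2, and 24 of 68 and 11 of 55 were highest on array 1. The 18 endothelial markers had median deviations of 0.24, -0.86 and 0.60, and 17 of 18 were lowest on array 2, among them Cdh5, the gene of VE-cadherin, with 9.14, 6.05 and 9.58. Emcn had 8.50, 6.75 and 9.16, Pecam1 had 8.92, 6.73 and 8.46, and Sox17, with the smallest margin of the list, had 5.91, 5.15 and 5.71. The part of endothelial cells in the Col4a1 and Col4a2 values was not tested. Col18a1 deviated by 0.00, -0.04 and 0.04.

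The cartilage-type genes were not uniform. Col11a1 deviated by 0.19, -0.56 and 0.37, and 46 of its 75 probesets were lowest on array 2. Its gene value was highest on array 3, whereas 49 of its 75 probesets were highest on array 1. Col11a2 deviated by 0.24, -0.07 and -0.18 and Col2a1 by -0.08, -0.05 and 0.14. Col9a1 deviated by 0.42, -0.26 and -0.16, Col9a2 by 0.10, 0.08 and -0.18 and Col9a3 by -0.07, -0.02 and 0.10. The chondrocyte markers had median deviations of 0.00, -0.10 and 0.10, with 6 of 11 lowest on array 2.

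**Figure D3:**
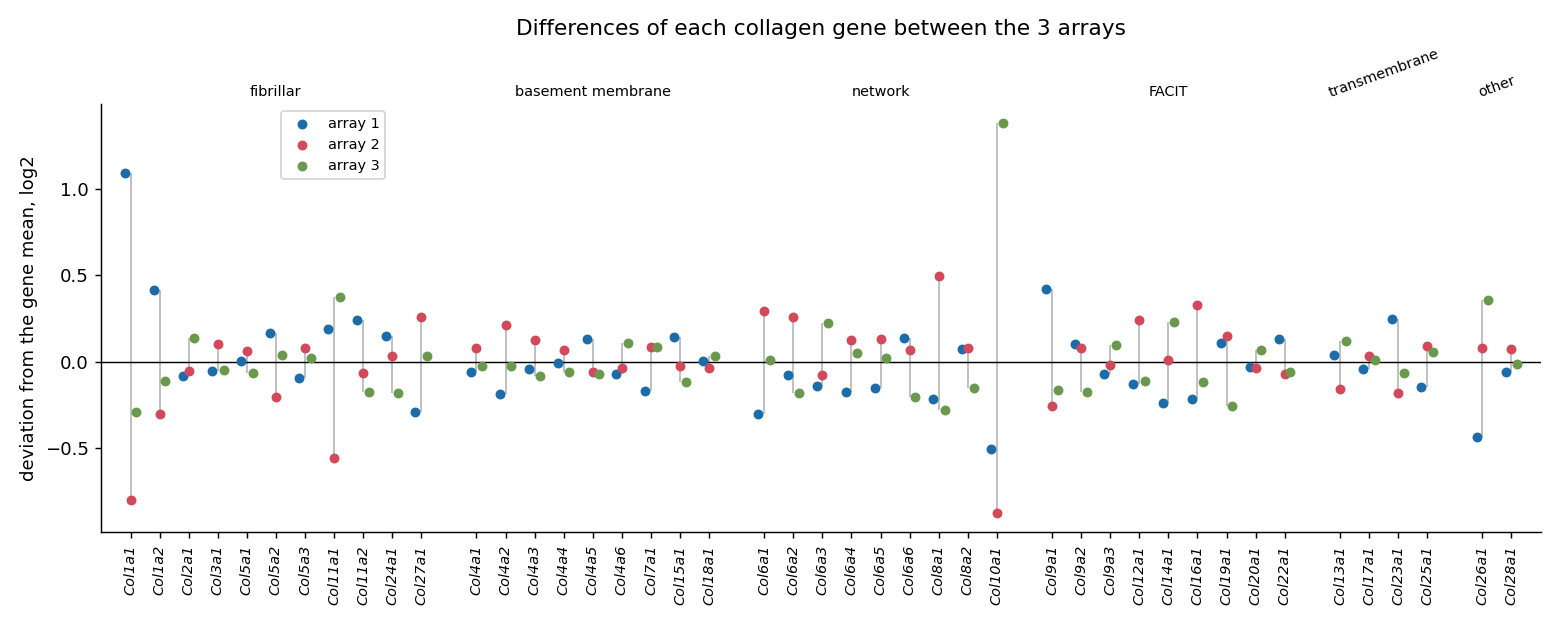
Deviation of each collagen gene from its mean over the 3 arrays (log2), after removing the median deviation of all genes on each array; grey lines span the 3 arrays. Col1a1 and Col10a1 have the widest spans, Col1a1 with array 1 at 1.09 and Col10a1 with array 3 at 1.38, and Col18a1 the narrowest.

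**Figure D4:**
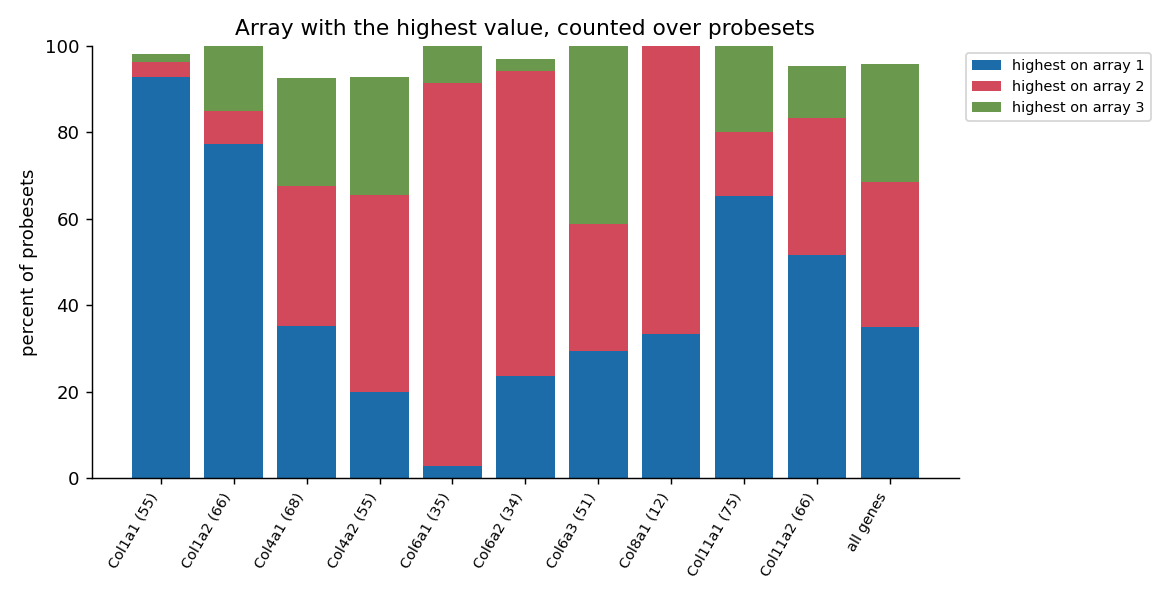
Percent of the probesets of 10 chains and of all genes whose highest value was on array 1, 2 or 3, with the number of probesets in brackets; bars end below 100 where probesets had equal values on arrays and were not counted. Array 1 takes 51 of 55 probesets of Col1a1 and array 2 takes 31 of 35 of Col6a1.

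Genes of collagen synthesis and crosslinking were called in 25 of 31 cases, 22 of them strongly, where 50.6% and 24.1% of all genes were. Ppib, which acts in prolyl hydroxylation in the endoplasmic reticulum, had 10.67, 10.42 and 10.58. Pcolce, an enhancer of procollagen cleavage, had 10.36, 10.59 and 9.81, and P4hb, a subunit of prolyl 4-hydroxylase, had 9.75, 10.25 and 9.85. The protease gene Tll1 had the smallest margin, with 4.40 ± 0.12 (SD, n = 3). The median deviation of this list was -0.15, 0.04 and 0.03, with 16 of 31 genes lowest on array 1, the array where the type I genes were highest.

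Collagen receptor genes were called in 7 of 12 cases (58.3%), near the 50.6% of all genes, and 5 were strongly above background (41.7%, beside 24.1%). The integrin subunit genes Itgb1 (11.33, 11.25 and 11.34) and Itga1 (9.67, 9.57 and 9.03) and Ddr2, a receptor kinase for fibrillar collagen (8.91, 8.64 and 8.08), had the largest margins. Lair1, an inhibitory receptor of leukocytes, had 4.68 ± 0.13 (SD). Matrix proteins that bind collagen were called in 14 of 18 cases, 11 of them strongly. These included Sparc with 12.37, 12.18 and 12.34, the proteoglycan biglycan (Bgn) with 11.84, 11.93 and 11.76 and Prelp with 11.17, 10.92 and 10.90. Kera, the keratocan gene, had 4.59 ± 0.40 (SD).

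Markers of cell types are given as description and are no independent check of the label, because the lists were chosen with earlier results known. All 12 perivascular stromal markers were strongly above background, with Cxcl12 at 11.75 ± 0.14 (SD, n = 3), Cdh11 at 11.63 ± 0.17, Lepr at 11.38 ± 0.12 and Foxc1, with the smallest margin, at 7.93 ± 0.32. The nestin gene Nes, the source of the reporter's promoter, gave 5.97, 5.21 and 5.56 and was not called (adjusted p = 0.757, limma). Calls were made for 8 of 9 osteoblast, 13 of 18 endothelial, 7 of 10 adipocyte, 8 of 12 smooth muscle and pericyte, 3 of 6 Schwann cell and 4 of 12 pan-leukocyte markers, where 50.6% of all genes were called. The Schwann cell share was close to that of all genes, and the pan-leukocyte share, 33.3%, was below it. Without array 1 the endothelial count was 7 of 18 and the smooth muscle and pericyte count was 5 of 12, where 45.4% of all genes were called. The range of these counts over each array left out is given in the last section. Across all genes, Pearson's r between arrays was between 0.933 and 0.947, over genes, which are not independent replicates.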

How the data were processed

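Per the submitters' processing notes, the authors made the deposited log2 values with Affymetrix Expression Console 1.1 and RMA, a method that corrects background, normalises arrays and summarises probes. Neither the settings of RMA nor the build of the array annotation is given in the sources used here. Sorted cells' RNA was amplified and converted to sense strand before labelling, per the labels' protocols. Probesets were named from the platform annotation, with 1 symbol for 318760 probesets and several for 6684, which were left out. Older symbols (4227) were updated through RefSeq synonyms of GRCm38.p6.

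An intercept-only model (limma 3.58.1, R 4.3.3) was fitted to each gene's value minus its array's threshold over all 18865 genes, with one-sided p-values and Benjamini-Hochberg adjustment. Variances were moderated across genes, with prior degrees of freedom of 6.05 in the main fit. These were infinite without array 2 and with at least 10 probesets, where every gene had the same variance. The model was tested on simulated data. Every collagen gene is named; genes of the other lists were taken from the 3 called genes with the largest margin and the 1 with the smallest, not all of which are printed, plus Nes as the reporter's gene and Acan, which was chosen after its values were seen. Members and lists were chosen with earlier results of these data known. Alternatives changed the gene summary, probeset minimum, threshold, background genes, symbols, variance model and arrays. Precision is limited by the small number of arrays, and probe GC content was not examined.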

Additional observations from a re-analysis of the deposited data

How the results depend on the processing

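With the 99th percentile of the chemosensory genes as threshold, 13 of 44 collagen genes were above background and 3 strongly. Of all 18865 genes, 3797 (20.1%) were above background and 1471 strongly. The 13 were Col1a1, Col1a2, Col2a1, Col4a1, Col5a1, Col5a2, Col6a1, Col6a2, Col6a3, Col8a1, Col9a2, Col9a3 and Col12a1, and these were called under every alternative run. At that threshold the margin was below 0 for Col13a1 (-0.20), Col15a1 (-0.76), Col17a1 (-0.71), Col18a1 (-0.15), Col23a1 (-0.47), Col26a1 (-0.68), Col4a3 (-0.69), Col6a5 (-0.33), Col7a1 (-0.17) and Col9a1 (-0.59). With no minimum of probesets the margin of Col15a1 was -0.017. There 7 of 44 collagen genes were strongly above background, beside 3162 of all 22103 genes. Col17a1, Col23a1, Col26a1, Col4a3 and Col9a1 also lost their call in that setting, with margins of 0.03, 0.27, 0.06, 0.05 and 0.16. The other alternatives gave 24 to 35 collagen calls, where 33.2% to 54.2% of all genes were called. Leaving out an array gave 26 to 27 collagen calls, 12 to 14 of them strong. Over all genes it gave 8559 to 9158 calls and 3756 to 4532 strong calls. Without an array, the lists gave 7 to 16 endothelial and 5 to 7 smooth muscle and pericyte calls, where 45.4% to 48.5% of all genes were called. With the mean over probesets Col8a2, Col10a1, Col20a1, Col22a1 and Col28a1 were also called, and the class median was 6.34 for transmembrane genes and 6.15 for Col26a1 and Col28a1. With platform symbols, which lack 3 type VI genes, the network median was 7.72. With the 99th percentile for probesets, 11.6% of collagen probesets were above background, and the share over all genes at that percentile is not given here. Leaving out probesets at 0 on every array left the counts of calls unchanged, and no collagen probeset was at 0 on all arrays. No paired analysis was possible because there is 1 group.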
